A study of Danio rerio with 6 samples.

Results

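Genes of T cell signalling, T cell subsets and antigen receptor recombination were followed in the olfactory epithelium of adult zebrafish. The members were chosen by name, as the rows of the deposited gene table called lck, zap70, cd8a, cd4, foxp3a, tbx21, rag1 or rag2. Of these 8 names, 7 had a row among the 33737 genes of the table, and lck, a kinase at the T cell receptor, had none and is not analysed here. All 7 members passed the low-count filter.

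RNA was sequenced from 6 libraries, 3 of control fish and 3 of fish exposed to the odorant phenylethyl alcohol (PEA). All fish were of the New wild type (AB derived line). The PEA fish received PEA each day during the first 3 weeks of development and the control fish received distilled water, after which both were raised without further exposure until the epithelium was taken at 6 months. The labels give 10 fish per experimental group and name the exposure as biological triplicates, and they do not say how many fish went into each library. Libraries are called control 1 to 3 and PEA 1 to 3, after the group numbers in the labels.

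T cells recognise antigen through a receptor whose signal is passed inward by kinases, among them Zap70, with the co-receptors Cd4 and Cd8 marking helper and cytotoxic T cells in turn. The transcription factor Foxp3 defines regulatory T cells, and Tbx21 (T-bet) drives type 1 helper and cytotoxic programmes. Rag1 and Rag2 form the enzyme that cuts DNA to assemble antigen receptor genes in immature T and B cells, and in zebrafish rag1 reporters are also known to label olfactory sensory neurons.

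Library totals lay between 43590575 and 49085973 counts, so that 3 counts were worth 0.0586 to 0.0697 counts per 1000000 (CPM, scaled by TMM factors). The 7 members together held 2718 to 3540 counts per library, between 0.00595% and 0.00733% of all counts. Single members ranged from 17 counts (tbx21 in control 1) to 966 counts (zap70 in control 3). Counts were not divided by transcript length, so levels are compared between libraries for a gene and not between genes. Control 1 and PEA 1 stood apart from the other libraries in fkbp5, a glucocorticoid-induced gene, at 1414 and 1621 CPM against 99.2 to 322 CPM, and values without these 2 libraries are given where they matter. Neuronal markers of the labelled tissue were abundant in every library: ompb, the olfactory marker protein gene, lay between 321 and 385 CPM.

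No member passed the test for a difference between PEA and control fish. By edgeR's quasi-likelihood test with Benjamini-Hochberg adjustment, 0 of 7 passed an adjusted p of 0.05, beside 0 of 20628 genes tested (0% called). At an unadjusted p under 0.05 the counts were 0 of 7 members and 342 genes (1.66%). DESeq2 called 0 of 7 members and 5 of 27192 genes (0.0184%). In no member were all PEA libraries on one side of all control libraries, whereas this held for 1136 of the 20628 genes (5.51%). With 3 members above 0 and 4 below, the median log2 fold change (PEA minus control) was -0.03 for the members and 0.00 for all genes tested. The tests measured the spread between these libraries, and in tissue RNA fewer cells of a type cannot be told apart from less RNA per cell.

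**Figure D1:**
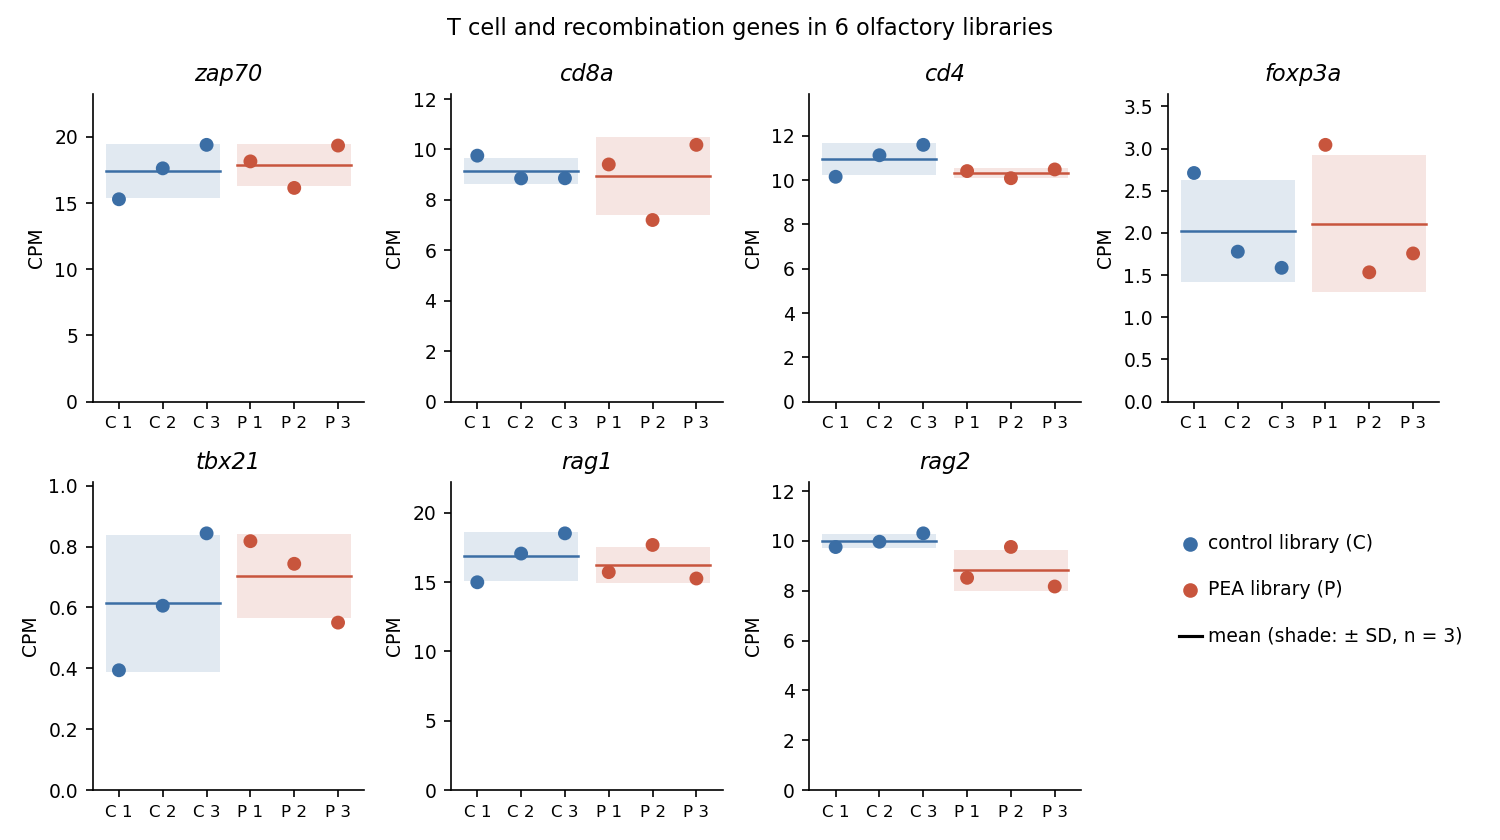
CPM (linear axis from 0) of the 7 member genes in each of the 6 libraries, with control libraries C 1 to C 3 in blue, PEA libraries P 1 to P 3 in red, and lines and shading for the mean ± SD of each group (n = 3). The groups overlap in every panel, and foxp3a is highest in C 1 and P 1.

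Zap70, the tyrosine kinase that docks on the activated T cell receptor, was the member with the most counts. The gene zap70 (ENSDARG00000015752) reached 15.3, 17.6 and 19.4 CPM in control 1, 2 and 3 and 18.2, 16.1 and 19.3 CPM in PEA 1, 2 and 3. Its lowest library was control 1 and its highest control 3, so the control group alone spanned the whole range of values. Group means were 17.4 ± 2.06 CPM in control and 17.9 ± 1.62 CPM in PEA fish (SD, n = 3). The log2 fold change was 0.04 with a standard error of 0.12 and a 95% interval of -0.25 to 0.32 (edgeR, adjusted p = 1.00). Differences between groups larger than a fold of 1.25 in favour of PEA lay outside this interval.

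The co-receptor gene cd4 (ENSDARG00000070668, now called cd4-1) was the steadiest member. It measured 10.1, 11.1 and 11.6 CPM in control 1, 2 and 3 and 10.4, 10.1 and 10.5 CPM in PEA 1, 2 and 3. The highest level exceeded the lowest by a factor of 1.15, and the PEA libraries all fell within a narrow band near the lower control value. Means were 10.95 ± 0.735 CPM and 10.3 ± 0.210 CPM, and the log2 fold change was -0.09 (SE 0.11, 95% interval -0.34 to 0.17, edgeR adjusted p = 1.00).

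The other co-receptor gene, cd8a (ENSDARG00000044797), varied most among the PEA libraries. Control 1, 2 and 3 gave 9.75, 8.85 and 8.86 CPM, and PEA 1, 2 and 3 gave 9.40, 7.20 and 10.2 CPM. Both the lowest and the highest library were PEA libraries, on either side of all controls. Means were 9.15 ± 0.519 CPM in control and 8.93 ± 1.55 CPM in PEA fish, with a log2 fold change of -0.03 (SE 0.15, 95% interval -0.39 to 0.32, edgeR adjusted p = 1.00). The sign of this small value rested on single libraries: it was 0.10 without PEA 2 and 0.02 without control 1. The gene for the partner chain, cd8b (listed as si:dkey-184p9.9), was lower in all PEA libraries (4.44 to 4.87 CPM) than in all control libraries (4.96 to 5.63 CPM), but its log2 fold change of -0.17 (SE 0.14, edgeR adjusted p = 1.00) did not pass the test.

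Within a library, cd8a and cd4 gave similar numbers of counts. The share of cd8a among the counts of both genes was 49.01%, 44.3% and 43.3% in control 1, 2 and 3 and 47.5%, 41.7% and 49.3% in PEA 1, 2 and 3. It was highest in PEA 3, lowest in PEA 2, and did not separate the groups. For PEA 2 the 95% Wilson interval was 38.2% to 45.2% and for PEA 3 it was 46.2% to 52.4%, so these libraries of 1 group differed beyond counting error, which is all that such intervals cover. The share is not a ratio of cells, since neither gene was scaled to its length and the RNA of each gene per cell is not known.

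Foxp3a, the regulatory T cell factor, was highest in both libraries numbered 1. The gene foxp3a (ENSDARG00000055750) had 117, 91 and 79 counts in control 1, 2 and 3 and 134, 66 and 83 counts in PEA 1, 2 and 3. As CPM this was 2.71, 1.78 and 1.59 in the control group and 3.04, 1.53 and 1.76 in the PEA group. Control 1 and PEA 1, the libraries with the most fkbp5, held the highest values, and the other 4 libraries lay between 1.53 and 1.78 CPM. The part of the fkbp5 difference in this pattern was not tested. The other listed foxp3 gene, foxp3b, had a similar level but did not share the pattern. It gave 2.18 CPM in control 1 and 1.82 CPM in PEA 1, against 1.72 to 2.37 CPM in the other libraries. Means of foxp3a were 2.03 ± 0.601 CPM in control and 2.11 ± 0.815 CPM in PEA fish (SD, n = 3). This was the widest relative spread of the 7 genes, with a coefficient of variation of 31.1% over the 6 libraries.

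The log2 fold change of foxp3a was 0.06 (SE 0.32, 95% interval -0.67 to 0.80, edgeR adjusted p = 1.00). It moved to -0.29 without PEA 1, to 0.33 without control 1 and to -0.03 without both. Measured against cd4 in the same library, foxp3a made up 21.1% of the counts of both genes in control 1 and 22.6% in PEA 1. In the other libraries it made up 12.04% to 14.4%. The lower Wilson bounds in control 1 and PEA 1 (17.9% and 19.4%) lay above the highest upper bound among the other 4 libraries (17.5%). These 2 libraries were set apart after the values were seen. The intervals cover counting error only and make no allowance for that choice. Zap70, tbx21 and rag1, by contrast, were lowest of all libraries in control 1, but no member was lowest in PEA 1. For cd8a, control 1 and PEA 1 (9.75 and 9.40 CPM) were exceeded only by PEA 3 (10.2 CPM).

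The gene tbx21 (ENSDARG00000004473), encoding T-bet, had the fewest counts. It gave 17, 31 and 42 counts in control 1, 2 and 3 and 36, 32 and 26 counts in PEA 1, 2 and 3. The control libraries bracketed all PEA libraries. Means were 0.614 ± 0.225 CPM and 0.704 ± 0.138 CPM, and the log2 fold change was 0.19 (SE 0.34, 95% interval -0.59 to 0.96, edgeR adjusted p = 1.00). At this depth a difference of up to a fold of 1.95 remained within the interval. Without control 1 the value was -0.04, and without both libraries numbered 1 it was -0.16.

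**Figure D2:**
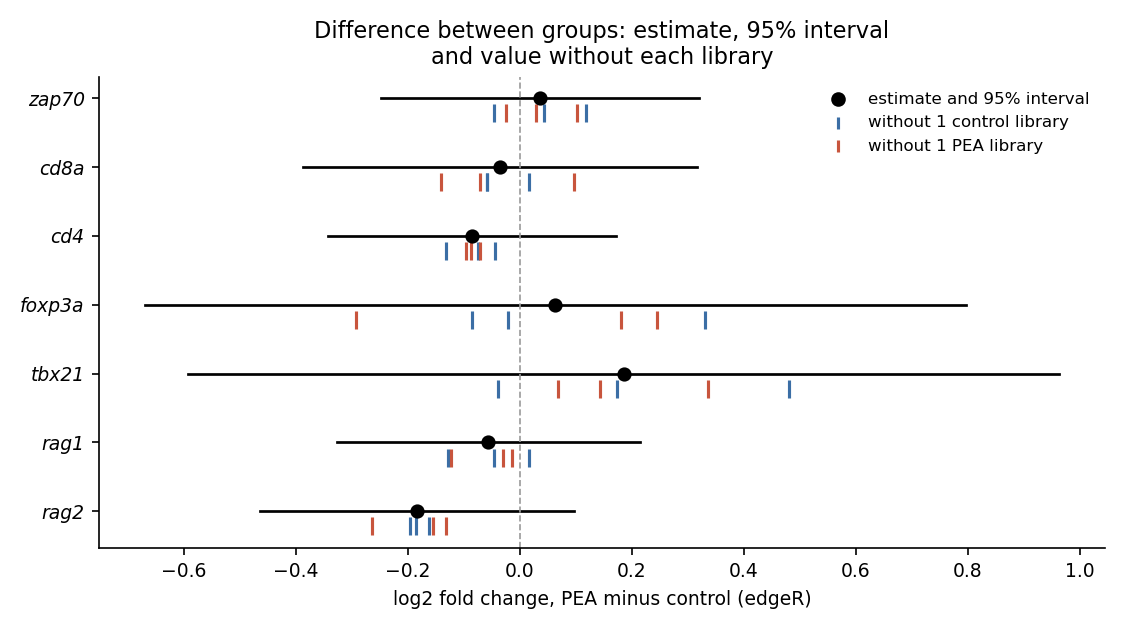
Log2 fold change (PEA minus control, edgeR) of the 7 members as a black point with its 95% interval as a line, with a tick below for the value after leaving out 1 control library (blue) or 1 PEA library (red). All 7 intervals include 0, and the ticks of cd4 and rag2 stay below 0.

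Both genes of the recombination enzyme were measured in every library. The gene rag1 (ENSDARG00000052122), whose product carries the DNA-cutting site, had 647, 873 and 922 counts in control 1, 2 and 3 and 692, 761 and 721 counts in PEA 1, 2 and 3. Control 1 was lowest and control 3 highest, with the PEA libraries between them. In CPM the means were 16.9 ± 1.77 in control and 16.2 ± 1.28 in PEA fish (SD, n = 3). The log2 fold change was -0.06 (SE 0.12, 95% interval -0.33 to 0.21, edgeR adjusted p = 1.00).

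The gene rag2 (ENSDARG00000052121), encoding the partner that binds histone marks and is needed for cutting, showed the lowest p of the members. It measured 9.75, 9.97 and 10.3 CPM in control 1, 2 and 3 and 8.52, 9.76 and 8.17 CPM in PEA 1, 2 and 3. PEA 1 and PEA 3 were below all controls, while PEA 2 lay just above control 1. Means were 10.0 ± 0.277 CPM and 8.82 ± 0.834 CPM, and the log2 fold change was -0.18 (SE 0.12, 95% interval -0.46 to 0.10). This did not pass the test (edgeR, unadjusted p = 0.171, adjusted p = 1.00). The value stayed between -0.26 and -0.13 under all 12 alternatives, and its lowest unadjusted p among them was 0.0811.

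The share of rag2 among the counts of rag1 and rag2 was then set side by side, a comparison chosen after these values were seen and given without a test. It was 39.4%, 36.9% and 35.7% in control 1, 2 and 3 and 35.1%, 35.6% and 34.9% in PEA 1, 2 and 3. All PEA shares were below all control shares, but the gap between control 3 and PEA 2 was small beside their Wilson intervals of 33.31% to 38.3% and 32.9% to 38.3%. The interval of control 1, from 36.5% to 42.4%, also overlapped those of all PEA libraries. Both genes are direct neighbours in the zebrafish genome and the strand setting of the counting is not given in the sources used here, so reads from any overlap of their transcripts cannot be assigned with certainty.

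**Figure D3:**
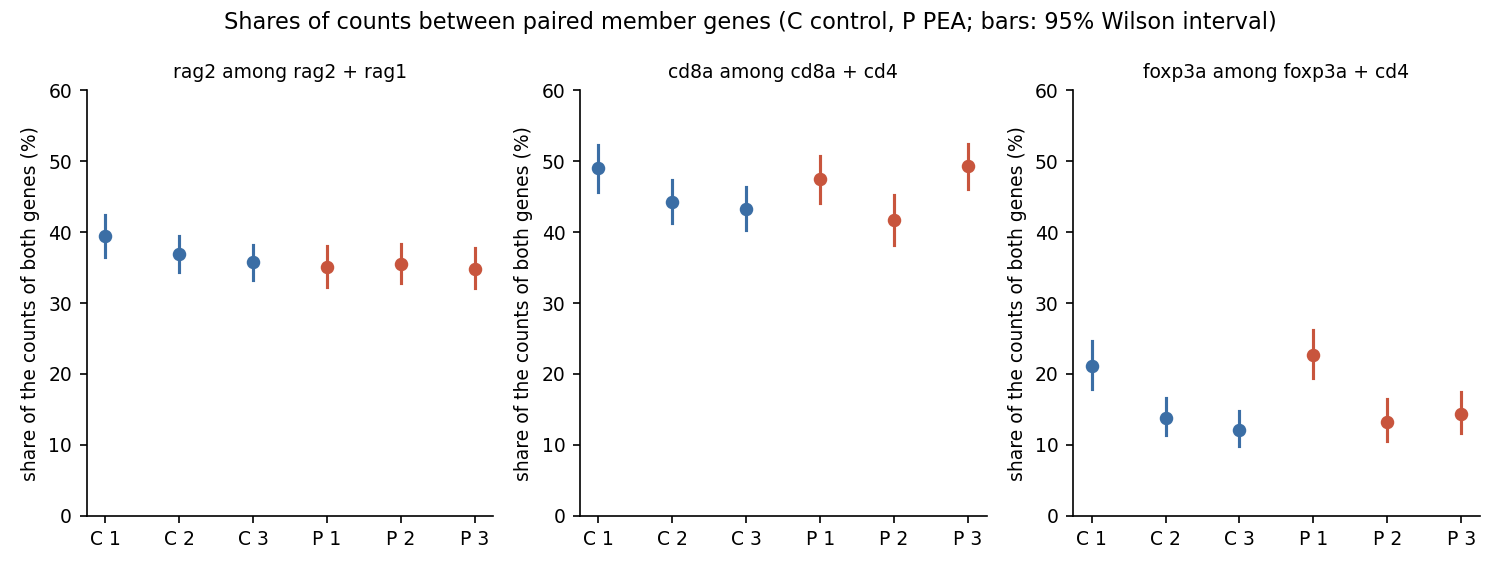
Share (%) of rag2 among rag2 and rag1 counts, of cd8a among cd8a and cd4 counts, and of foxp3a among foxp3a and cd4 counts in control (C, blue) and PEA (P, red) libraries, with 95% Wilson intervals as bars. The foxp3a share is 21.1% in C 1 and 22.6% in P 1 and at most 14.4% elsewhere, while the rag2 shares lie between 34.9% and 39.4%.

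The other listed genes of V(D)J recombination and DNA end joining that had a row were measured in every library, except dntt and xrcc6. Terminal transferase, encoded by dntt, adds bases at the joints of receptor genes in developing lymphocytes and is a marker of that stage. It had 0, 1 and 0 counts in control 1, 2 and 3 and 0, 1 and 2 counts in PEA 1, 2 and 3, at or under the floor of 3 counts in each library. Of the listed end-joining genes that most cells use, those with a row were measured in every library, with the exception of xrcc6 (Ku70). The DNA-dependent kinase prkdc lay between 43.4 and 49.4 CPM, the nuclease gene dclre1c (Artemis) between 32.5 and 43.8 CPM, and the ligase partner xrcc4 between 35.4 and 43.8 CPM. The gene xrcc6 is listed at 0 in all 6 libraries, as is the kinase gene csk, so a low count in this table need not mean a missing transcript.

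Of 17 names in the recombination list, 13 had a row and 11 were tested, rag1 and rag2 among them. None was called by edgeR or DESeq2, 4 were above 0 and 7 below, and the median log2 fold change was -0.04 beside 0.00 for all genes tested. The chromatin proteins hmgb1b and hmgb2b, which bend DNA during cutting and have many other uses, had the most counts of the list, with mean levels over the 6 libraries of 195 and 348 CPM and log2 fold changes of 0.05 and 0.01.

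Defining markers of the thymus, where T cells recombine their receptors, had few counts. The gene foxn1, the factor that defines thymic epithelium, had 1, 6 and 1 counts in control 1, 2 and 3 and 0, 2 and 6 counts in PEA 1, 2 and 3. The thymic proteasome gene psmb11b had 1 to 5 counts per library. More widely used members of that list were abundant, with the factor gene foxn4 at 47.1 to 62.3 CPM, ccl25b, a chemokine gene for T cell homing, at 145 to 238 CPM and cxcl12a at 451 to 623 CPM. Of the 8 thymic genes in the table, 6 were tested, with a median log2 fold change of 0.00, and none was called. Of the 6, 1 had an unadjusted p under 0.05 and did not overlap between groups, beside 1.66% and 5.51% of all genes tested. This was aire, which drives self-antigen display in the thymus and was picked after its values were seen. The gene aire had 4, 14 and 13 counts in control 1, 2 and 3 and 24, 17 and 21 counts in PEA 1, 2 and 3. Its log2 fold change was 1.11 (SE 0.42, edgeR unadjusted p = 0.0273, adjusted p = 1.00).

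The wider T cell receptor pathway gave the same account. Of 57 names, 29 had a row and 28 were tested, 14 above and 14 below 0, with 0 called by either tool and a median log2 fold change of 0.00. Of the 28 genes, 2 did not overlap between groups, beside 5.51% of all genes tested. They were the cd8b gene described above and lcp2b, a copy of the adaptor gene SLP-76 that is known in mammals. The gene lcp2b was measured at 1.39, 1.43 and 1.49 CPM in control 1, 2 and 3 and at 1.09, 1.18 and 1.16 CPM in PEA 1, 2 and 3. Its log2 fold change was -0.32 (SE 0.20, edgeR unadjusted p = 0.146, adjusted p = 1.00), and it rested on 48 to 74 counts per library. The costimulatory receptor gene cd28 had a log2 fold change of 0.42 (SE 0.27) and the adaptor gene sla2, which dampens receptor signals, of 0.39 (SE 0.28), both with an edgeR adjusted p of 1.00. For sla2 the high libraries were control 1, PEA 1 and PEA 2, at 18.8, 20.9 and 17.9 CPM against 9.40 to 12.1 CPM in the others. The genes with the most counts, plcg1 and fyna, encode signalling enzymes that many cell types share, and they differed by 0.00 and -0.02 on the log2 scale.

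T cell subset factors, cytokines and homing receptors were the largest list, with 41 of 48 names in the table and 35 tested. None was called, 20 were above and 15 below 0, and the median log2 fold change was 0.04. The lowest p belonged to il13, a type 2 cytokine gene, which gave 4.75, 4.32 and 3.92 CPM in control 1, 2 and 3 and 7.66, 5.30 and 4.61 CPM in PEA 1, 2 and 3. PEA 1 and PEA 2 were above all controls and PEA 3 was not, and the log2 fold change of 0.44 (SE 0.21) had an edgeR unadjusted p of 0.0706 and an adjusted p of 1.00. The type 2 factor gene gata3, which is also active outside lymphocytes, differed by -0.23 (SE 0.14). The cytokine gene il21, a product of follicular helper T cells, was lower in all PEA libraries (0.487 to 0.682 CPM) than in all controls (0.684 to 0.803 CPM), on 23 to 40 counts, with a log2 fold change of -0.38 (SE 0.26, edgeR adjusted p = 1.00). It was the 1 gene of the 35 tested that did not overlap between groups, beside 5.51% of all genes tested. The type 17 factor gene rorcb had 30 to 111 counts and a log2 fold change of 0.59 (SE 0.43).

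The homing receptor genes ccr9a and cxcr4b had the most counts of the subset list, and their pattern over libraries was unlike that of zap70. The gene ccr9a lay at 204, 112 and 69.3 CPM in control 1, 2 and 3 and at 194, 211 and 129 CPM in PEA 1, 2 and 3. The gene cxcr4b lay at 146, 72.2 and 57.2 CPM in the control group and at 131, 143 and 69.9 CPM in the PEA group. In both genes control 1, PEA 1 and PEA 2 were the 3 highest libraries, which was also seen in sla2. Their log2 fold changes of 0.47 (SE 0.35) and 0.32 (SE 0.37) did not pass the test (edgeR, adjusted p = 1.00), and both receptors are found on cells other than T cells.

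Genes of the cytotoxic and NK-like list were sparse, and nccrp1, named for cytotoxic cells, was listed with neutrophils instead. Of 25 names 19 had a row and 13 were tested, 8 above and 5 below 0, with 0 called and a median log2 fold change of 0.07. The chemokine gene ccl38.6 had the most counts, at 7.65 to 16.7 CPM in control and 7.83 to 14.2 CPM in PEA libraries. The receptor chain gene il2rb, used by T and NK cells, was lowest in control 1 at 5.61 CPM and highest in PEA 1 at 14.8 CPM, with a log2 fold change of 0.17 (SE 0.31). The log2 fold changes of ccl38a.5, dicp1.1 and si:rp71-40n14.7 (now nkl.2, an NK-lysin gene) were 0.36 (SE 0.35), -0.13 (SE 0.23) and -0.18 (SE 0.31), none past the test. Over the 4 lists together 85 genes were tested, 44 above and 41 below 0. None had an unadjusted p under 0.05, beside 1.66% of all genes, and 3 did not overlap between groups, beside 5.51%.

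Libraries differed more than groups in the T cell receptor list. Its genes lay a median of 0.15 log2 units below their own mean in control 1 and 0.12 below in PEA 2, and 0.12 above in control 3. Control 1 was the lowest library for 10 of the 28 genes (35.7%), where it was the lowest for 22.5% of all genes tested, and PEA 2 was the lowest for 9 (32.1% against 18.4%). The recombination list did not have this order, with medians between -0.03 and 0.05 in all libraries.

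**Figure D4:**
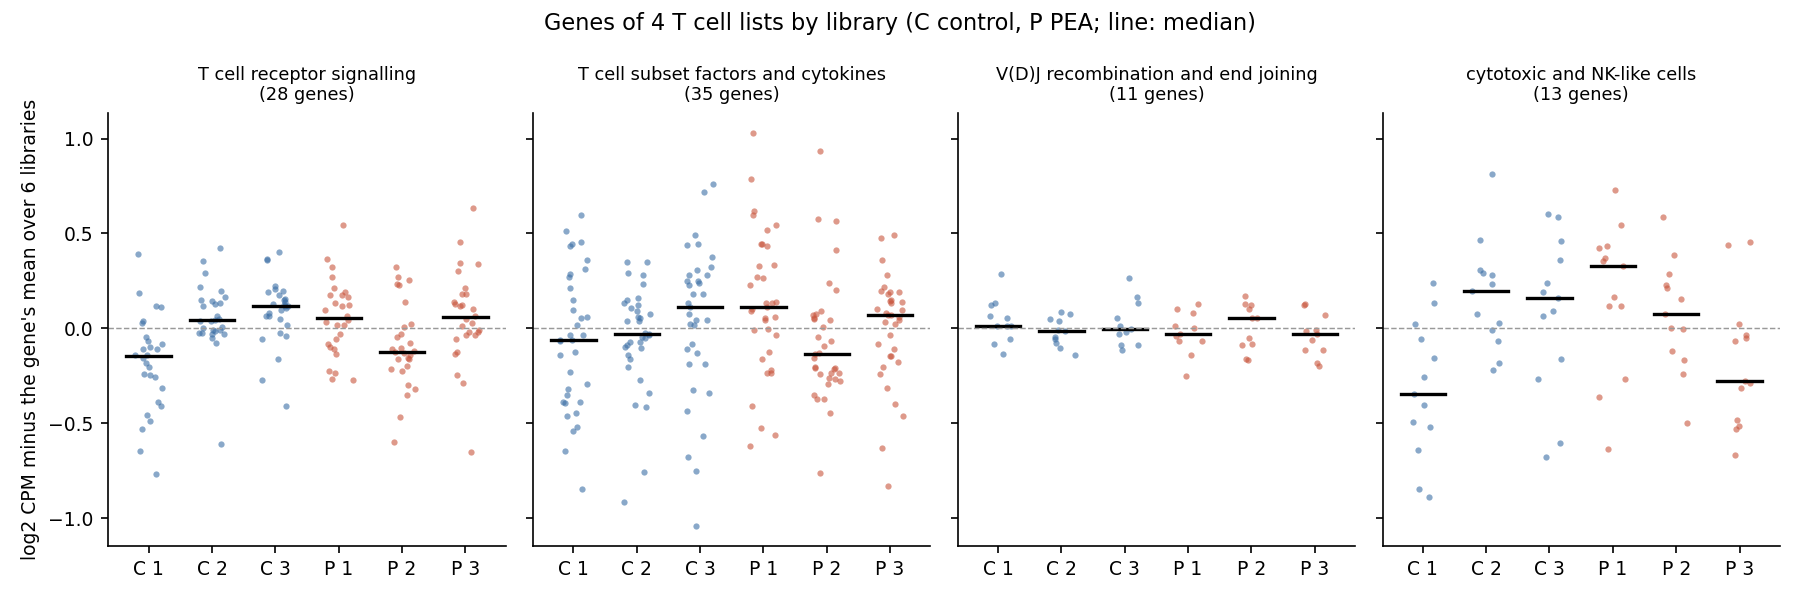
Log2 CPM minus the gene's own mean over the 6 libraries for each tested gene of 4 lists (28, 35, 11 and 13 genes), as points by control (C, blue) and PEA (P, red) library, with the median as a black line. In the T cell receptor list the medians are lowest in C 1 and P 2, at -0.15 and -0.12.

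The pattern of zap70 over libraries was shared by some, and not all, of the other genes that T cells use. Over the 6 libraries the log2 CPM of zap70 had Pearson's r = 0.92 and Spearman's rho = 0.94 with trbc1, the gene of a T cell receptor beta constant region, chosen after its values were seen. Without the 2 libraries farthest from the median of zap70, r was 0.85. The gene trbc1 gave 20.2, 27.1 and 34.9 CPM in control 1, 2 and 3 and 26.1, 25.2 and 30.6 CPM in PEA 1, 2 and 3, with the lowest and highest libraries of zap70. The kinase gene itk and the receptor gene il7r were also close to zap70 (r = 0.93 and 0.94, rho = 0.71 and 0.83), but r fell to 0.42 and 0.53 without those libraries. These are descriptions over 6 libraries that share depth and scaling, and 587 of 20627 other genes had r above 0.9 with zap70.

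By Pearson's r, the co-receptors and the recombination genes did not follow zap70 as closely. The gene cd4 had r = 0.66 with zap70 and 0.15 without the 2 farthest libraries. Its rho with zap70 was 0.77, above that of itk. With itk, il7r and trbc1, cd4 had r = 0.67, 0.76 and 0.75 (rho = 0.71, 0.94 and 0.89). The gene cd8a had r = 0.33 with zap70 and 0.09 with cd4. For rag1 and rag2 the r was 0.68 (rho = 0.77, and 0.95 without the 2 libraries farthest in rag1), whereas with zap70 it was 0.24 for rag1 and -0.35 for rag2.

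The genes most like each member over the 6 libraries were chosen among all genes tested, whatever their function. By Pearson's r of log2 CPM, the nearest named genes were gusb for zap70 (r = 1.00), grk7b for cd8a (0.99), ccdc90b for cd4 (0.99), fip1l1a for foxp3a (0.99), ralab for tbx21 (0.99), cmtr1 for rag1 (0.99) and mkks for rag2 (0.98). The second for cd8a was il12rb2l, named as a cytokine receptor gene (0.98). The others were ENSDARG00000044850 and stx7l for zap70, FAM150A for cd8a, ENSDARG00000033872 (the nearest by r) and C3H17orf75 for cd4, rgl3a and fam102ba for foxp3a, MFAP4 (10 of 14) and ENSDARG00000062113 for tbx21, dcaf15 and aldh1l1 for rag1, and spx and hist2h2l for rag2. With 6 points, between 63 and 587 genes per member had r above 0.9.

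Among markers of other cells, the summed level of B cell genes did not overlap between groups. This sum holds ighv1-4, the gene with the highest mean CPM and the largest log2 fold change of the list, and was not taken without it. Group means of ighv1-4 were 13.1 ± 4.05 CPM in control and 34.6 ± 12.8 CPM in PEA fish (SD, n = 3). The summed level of the 11 B cell genes in the table was 44.7 to 55.0 CPM in control and 60.7 to 85.3 CPM in PEA libraries. Of these genes 10 were tested, 8 above and 2 below 0. EdgeR called 0, and DESeq2 called 1, beside 0.0184% of all genes. An unadjusted edgeR p under 0.05 was reached by 2, beside 1.66% of all genes tested. In 3 of the 10 the groups did not overlap, beside 5.51% of all genes tested. The gene called by DESeq2 was ighv1-4 (now ighm), the immunoglobulin mu chain, at 8.40 to 15.5 CPM in control and 21.0 to 46.4 CPM in PEA libraries. Its log2 fold change of 1.40 (SE 0.31) had an adjusted p of 1.00 in edgeR and passed the threshold in DESeq2 (adjusted p = 0.00761). The defining genes cd79a and pax5 were low, at 0.958 to 1.51 CPM and 0.116 to 0.296 CPM. The genes CD37 and btk, also used by other leukocytes, gave 6.84 to 9.45 CPM and 11.9 to 14.4 CPM over the 6 libraries. Their log2 fold changes were -0.04 (SE 0.15) and 0.14 (SE 0.12), and the groups overlapped in both. Rag genes are used by immature B cells as well. The group means of rag1 and rag2 were lower in PEA than in control fish, but neither difference passed the test. The part of B cells or of olfactory sensory neurons in the rag values was not tested.

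Summed levels of markers of the remaining cell types overlapped between groups in all lists but that of sustentacular and basal cells. Only the sum of that list did so: 0 of its 11 genes were without overlap, beside 5.51% of all genes tested. PEA 1 was the lowest library for 8 of the 11 genes (72.7%), where it was the lowest for 16.1% of all genes tested. Summed levels were 236 to 297 CPM in control and 236 to 287 CPM in PEA libraries for 8 genes listed for neutrophils, led by mmp9, nccrp1 and lyz. These had mean levels of 153, 88.7 and 15.8 CPM, so the sum mostly followed mmp9 and nccrp1. The gene nccrp1 is named for a receptor of nonspecific cytotoxic cells and is not specific to neutrophils. For 7 genes listed for macrophages, the summed levels were 5396 to 6217 CPM in control and 5682 to 6513 CPM in PEA libraries. They were led by the antigen presentation genes cd74a and cd74b, at mean levels of 3728 and 1953 CPM, and by mpeg1.1, at 178 CPM. This sum was therefore mostly a level of cd74a and cd74b. For 7 erythroid genes, led by hbaa1, ba1 and alas2, the summed levels were 126 to 187 and 148 to 173 CPM. For 13 olfactory sensory neuron genes, led by calb2a, s100z and cnga4, they were 4183 to 4463 and 3941 to 4758 CPM. For 11 sustentacular and basal cell genes, led by krt5, krt4 and six1b, they were 4151 to 4566 and 3688 to 4028 CPM. This sum was not taken without krt5, the gene with the highest mean CPM of the list. Group means of krt5 were 2370 ± 121 CPM in control and 1959 ± 251 CPM in PEA fish (SD, n = 3). Its log2 fold change was -0.28 (SE 0.11, edgeR unadjusted p = 0.0386, adjusted p = 1.00). It was the 1 gene of the 11 with an unadjusted p under 0.05, beside 1.66% of all genes tested. The part of these cell types in the T cell values was not tested.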

How the data were processed

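Per the labels' processing notes, the authors ran FastQC 0.11.9 and Trim Galore 0.6.4 on the reads, used Bowtie2 with the Zv9 genome and took gene counts from HTSeq 0.11.2, with DESeq2 1.24 for their comparison. The counts tested here are the raw values the authors deposited. A rounded score for each library (counts over a size factor, by the authors) was not tested, nor were the group means, fold ratio and log2 fold change, which the authors deposited as their own comparison. The annotation release and the strand setting were not stated.

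Counts were tested with edgeR 4.0.16 (R 4.3.3): TMM, filterByExpr, group as the only term, glmQLFTest and Benjamini-Hochberg adjustment over 20628 genes, with adjusted p under 0.05 as the threshold, checked on simulated data. CPM used TMM factors, log2 CPM a prior count of 2, intervals a level of 95%. Alternatives were DESeq2 size factors, no filter, at least 10 counts in every library, a block for library number, leaving out each library, DESeq2 1.42.0 and, chosen after seeing the data, leaving out control 1 and PEA 1. Members and lists were chosen with earlier results of these data known. The text names all members and, in each T cell list, the 4 genes of lowest p and the 2 of highest CPM. It also names the 3 genes most like each member and up to 3 markers per other cell type by CPM. Genes outside this rule (fkbp5, ompb, foxp3b, dntt, xrcc6, csk, foxn1, psmb11b, aire, trbc1, itk, il7r, cd79a, pax5) were chosen after their values were seen. Names came from the table or, failing that, from a current symbol held by 1 identifier. No pair of replicates was counted as 1 sample, at a chi-square per gene of 14.9 to 57.2. Totals ranged from 45153814 to 49085973 counts in control and from 43590575 to 46153505 in PEA libraries.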

Additional observations from a re-analysis of the deposited data

How the results depend on the processing

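The members stayed at 0 called genes in all 12 alternatives. Over all genes, 0 were called with DESeq2 size factors, without the filter, with at least 10 counts per library and with the replicate block, 0 to 1 after leaving out 1 library (1 without control 3), 1 (fkbp5) without both libraries numbered 1, and 5 with DESeq2. Member values near 0 changed sign with single libraries. Leaving out 1 library at a time gave log2 fold changes of -0.0453 to 0.119 for zap70, -0.14 to 0.10 for cd8a, -0.13 to -0.04 for cd4, -0.29 to 0.33 for foxp3a, -0.0388 to 0.481 for tbx21, -0.128 to 0.0167 for rag1 and -0.26 to -0.13 for rag2. Without both libraries numbered 1 they were -0.0547 for zap70, -0.0252 for foxp3a and -0.16 for tbx21. List medians ranged over these libraries from -0.05 to 0.07 for receptor signalling, -0.0446 to 0.0890 for subset factors, -0.0399 to 0.0279 for recombination and -0.11 to 0.17 for cytotoxic genes, and without both libraries numbered 1 they were -0.0809 for subset factors and -0.19 for cytotoxic genes. The cause of these shifts was not tested.

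Deviations from the group means correlated at 0.17, -0.15 and 0.14 in same-numbered libraries and at -0.30 to 0.24 in unlike-numbered ones. With 3 libraries per group, these values cannot decide whether the library numbers pair the samples. The replicate block gave 0 called genes and changed no call, with 447 genes at an unadjusted p under 0.05 against 342. With 3 libraries per group, fold changes up to 1.25 for zap70 and 1.95 for tbx21 lay within the 95% intervals.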
